A study of Homo sapiens with 6 samples.

Results

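The zinc finger genes of chromosome 19 were followed in K562 cells, an established human erythroleukaemia line, with a control vector (3 arrays) or a vector for the microRNA miR-543 (3 arrays). Members were the array's probe sets whose platform symbol is ZNF followed by a number, with or without a letter, and whose identifier places them on chromosome 19. This gave 233 genes, each with 1 probe set, of 21448 probe sets in all; 231 are protein-coding and 2, ZNF321P and ZNF833P, are transcribed pseudogenes in the RefSeq gene table. The labels give bone marrow as the tissue and the same cell line for both groups, and do not say how the vectors were introduced, whether a group is 1 clone or whether replicates are separate cultures, so the p-values here describe spread among these arrays, and that spread may be purely technical. The design text states that mRNAs of cells overexpressing miR-543 and of control cells were compared, and the title names TET1 and TET2 as the targets of interest.

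Most of these genes encode C2H2 zinc finger proteins, in which a chain of small zinc-binding fingers reads DNA, and many carry a KRAB domain at the other end of the protein. The KRAB domain binds TRIM28, which brings in the histone methyltransferase SETDB1 and heterochromatin proteins, and the bound site, often a transposable element, is silenced. The human genes arose by repeated tandem duplication and lie in dense runs on chromosome 19, where neighbours are often close paralogs. Close paralogs can also share array probes, and probe sequences were not used here, so the values of near-identical neighbours may not be independent of each other.

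The microRNA carried by the vector is shown because its seed sets which transcripts it can pair with. Mature miR-543 in RefSeq (GRCh38.p14, chr14:101032033-101032054, plus strand), 5′ to 3′, with the seed, bases 2 to 8, in capitals, reads as follows.
miR-543: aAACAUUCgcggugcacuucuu
Transcript sequences of the members were not analysed here, and no count of seed matches is given.

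Across the series as a whole, arrays had median log2 signals of 5.99 to 6.01, and Pearson's r between arrays, across probe sets, was 0.9931 to 0.9957. Of the K562 markers, GATA1, HBE1, HBZ and TFRC had control means of 15.0 to 15.7, LMO2 10.6, TAL1 9.51 and KLF1 6.81. The summed log2 signal of the 7 measured K562 markers was 88.65 to 88.87 on the control arrays and 89.97 to 90.45 on the miR-543 arrays, without overlap. KLF1 and TAL1 were the 2 of these that were higher without overlap, with log2 changes of 0.66 and 0.41 (adjusted p = 0.106 and 0.371 in limma). The sum of 9 markers of other cell types was 54.52 to 56.44 and 56.35 to 58.11, with overlap. Of the latter, EPCAM (13.7), CD3D (10.6) and CD79A (6.53) lay above the array medians in the control cells and the other 6 below, and CD3D was higher with the miR-543 vector without overlap (log2 change 0.64, adjusted p = 0.184 in limma). The part of these markers in the results below was not tested. The number of arrays limits the precision.

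Signals of the members in the control cells ranged from 3.06 to 13.3 on the log2 scale, with a median of 6.92. In 44 members the control mean lay above the upper quartile of every control array, in 80 below the median and in 14 below the lower quartile. A signal on this array is not an abundance, since probe sets differ in brightness, and no detection calls were used. The highest signals were those of ZNF100, ZNF254, ZNF611, ZNF146, ZNF121 and ZNF675, with control means of 13.3, 13.3, 12.6, 12.5, 12.5 and 12.3. The lowest, ZNF829, ZNF549, ZNF132 and ZNF285, had control means of 3.06, 3.09, 3.11 and 3.34, below the lower quartiles of 3.98 to 4.03. The members' median SD between replicate arrays was 0.19 in the control group and 0.19 in the miR-543 group, beside 0.18 and 0.18 over all probe sets.

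One member passed the test. ZNF676, a KRAB zinc finger protein described at long terminal repeats of endogenous retroviruses, read 6.84, 6.50 and 6.76 on the control arrays and 5.56, 5.33 and 5.12 on the miR-543 arrays. The groups were fully apart, with every miR-543 array under every control array, and the gap between the groups was wider than the range within either. The mean fell from 6.70 ± 0.18 to 5.34 ± 0.22 (SD, n = 3), a log2 change of -1.36 (SE 0.16). Its 95% interval ran from -1.73 to -0.9997, the linear signal was 38.9% of control, and the adjusted p was 0.00605 in limma. P-values were adjusted across the whole array (Benjamini-Hochberg), and a probe set was called where this value was under 0.05. Over all probe sets 0.569% were called, 0.438% lower and 0.131% higher, against 1 of 233 members (0 higher). At an unadjusted p under 0.05, 27 members were lower and 4 higher, beside 5.21% and 5.4% of all probe sets. The call of ZNF676 held in every one of the 11 alternative fits, with adjusted p between 0.00135 and 0.0469.

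**Figure D1:**
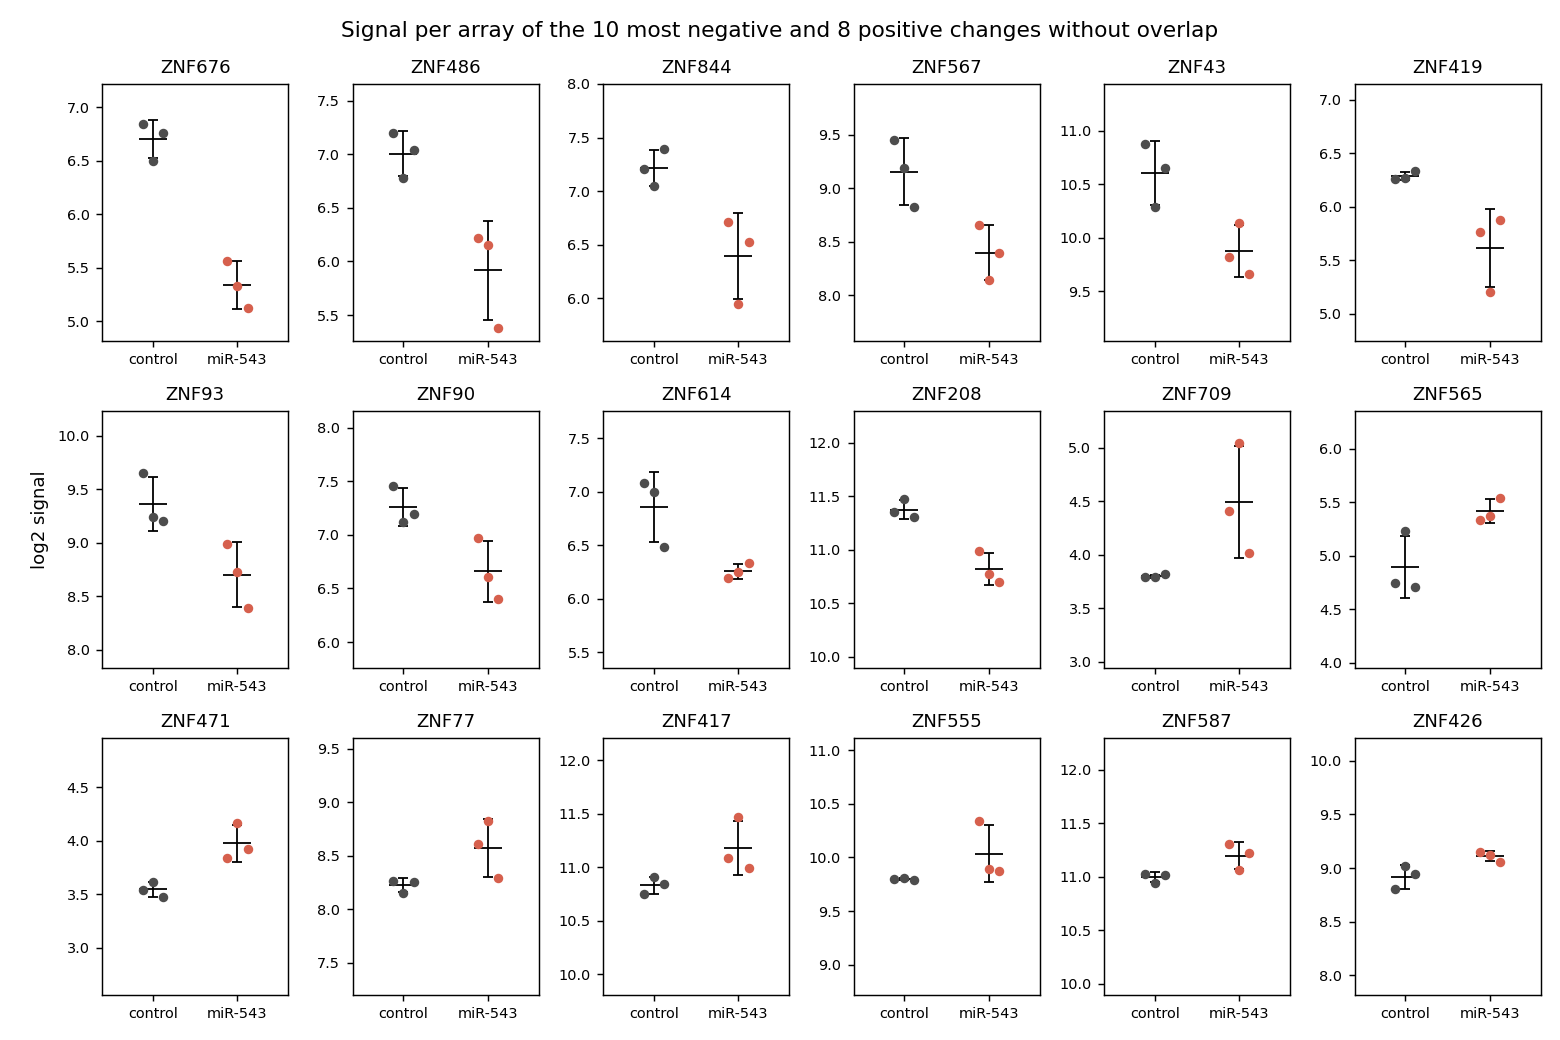
Log2 signal on each array (points) with mean and SD (bars, n = 3) for the 10 most negative and the 8 positive log2 changes among members whose groups do not overlap; every panel spans the same range of log2 signal. ZNF676 lies between 6.50 and 6.84 with the control vector and between 5.12 and 5.56 with the miR-543 vector.

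The members as a whole lay slightly lower with the miR-543 vector. Of the 233, 133 had a log2 change below 0, 98 above 0 and 2 at 0, where 47.1% of all probe sets lay below 0. Their median change was -0.07, beside 0.01 over all probe sets, -0.02 over 249 ZNF-number genes of other chromosomes and 0.04 over the 1225 other probe sets of chromosome 19. The 3 arrays of each group did not overlap in 45 members, 37 lower and 8 higher with miR-543, beside 7.5% and 7.89% of all probe sets. A log2 change at or below -0.5 was found for 15 members and one at or above 0.5 for 3 (ZNF709, ZNF579 and ZNF565), beside 2.62% and 2.06% of all probe sets. For 222 of the 233 members the 95% interval lay inside a 2-fold change in either direction (log2 change of 1). Whether the members differ from other genes was not tested, and without miR-543 replicate 3 their median was -0.05.

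**Figure D2:**
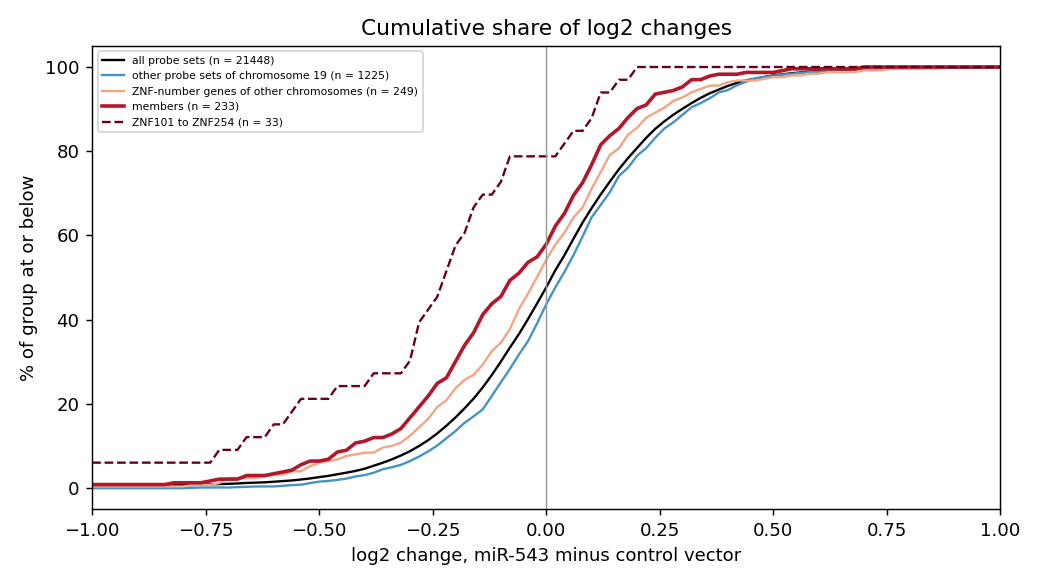
Cumulative share, in percent, of log2 changes (miR-543 vector minus control vector, axis from -1 to 1) for all probe sets, other probe sets of chromosome 19, ZNF-number genes of other chromosomes, the 233 members and the 33 members of the run from ZNF101 to ZNF254. The members' curve lies to the left of that of all probe sets around its middle (medians -0.07 and 0.01), and the dashed curve of the run lies further left (median -0.22).

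Changes were also set out along the chromosome. Members were grouped into runs in the gene order of the RefSeq table, a run ending where more than 3 other protein-coding genes intervene. This gave 29 runs, 12 of them single genes and 11 with 5 or more members, which together hold 205 members. Medians in these 11 runs went from -0.22 in the run from ZNF101 to ZNF254, on the short arm toward the centromere, to 0.17 in the 5 genes from ZNF554 to ZNF77. No test was made between runs.

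**Figure D3:**
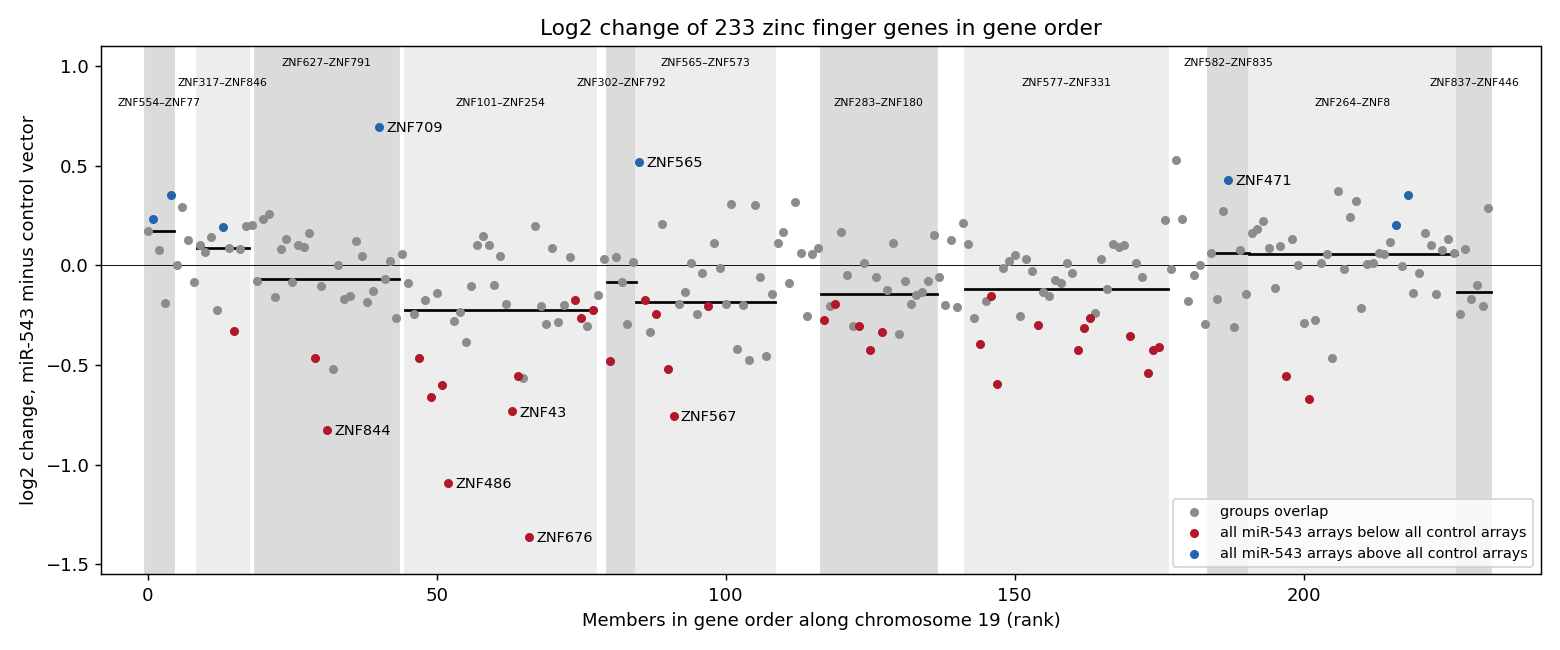
Log2 change (miR-543 vector minus control vector) of each of the 233 members, placed by rank in gene order along chromosome 19; shaded blocks are runs of 5 or more members, black lines their medians, and colours show whether the 3 arrays of each group overlap. The 2 most negative points, ZNF676 (-1.36) and ZNF486 (-1.09), lie in the block from ZNF101 to ZNF254, where 10 genes are lower without overlap and 0 higher.

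The run from ZNF101 to ZNF254 held 33 members, 26 below 0 and 7 above, with a median change of -0.22. Of these, 10 were lower without overlap and 0 higher, and 8 were lower at an unadjusted p under 0.05. Over all probe sets 7.5% were lower and 7.89% higher without overlap, and 5.21% were lower at that p. It held 7 of the 15 members with a change at or below -0.5. ZNF506 (-0.46) and the 9 genes described next made up the 10, and the 23 members with overlapping groups had changes between -0.57 and 0.20. Outside this run the other 200 members had a median of -0.04, with 107 below 0 and 91 above. This run was set apart because it holds the called member, and it has the lowest median of the runs of 5 or more. Its contrast with the other members follows in part from that choice. The array medians of this run, taken over genes after subtracting each gene's control mean, were 0.15, -0.13 and -0.03 on control arrays 1 to 3 and -0.13, -0.18 and -0.38 on miR-543 arrays 1 to 3. Control array 2 thus lay within the range of the miR-543 arrays, and miR-543 array 3 was the lowest. Without miR-543 replicate 3 the median change of the run was -0.12, and without control replicate 1 it was -0.15.

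**Figure D4:**
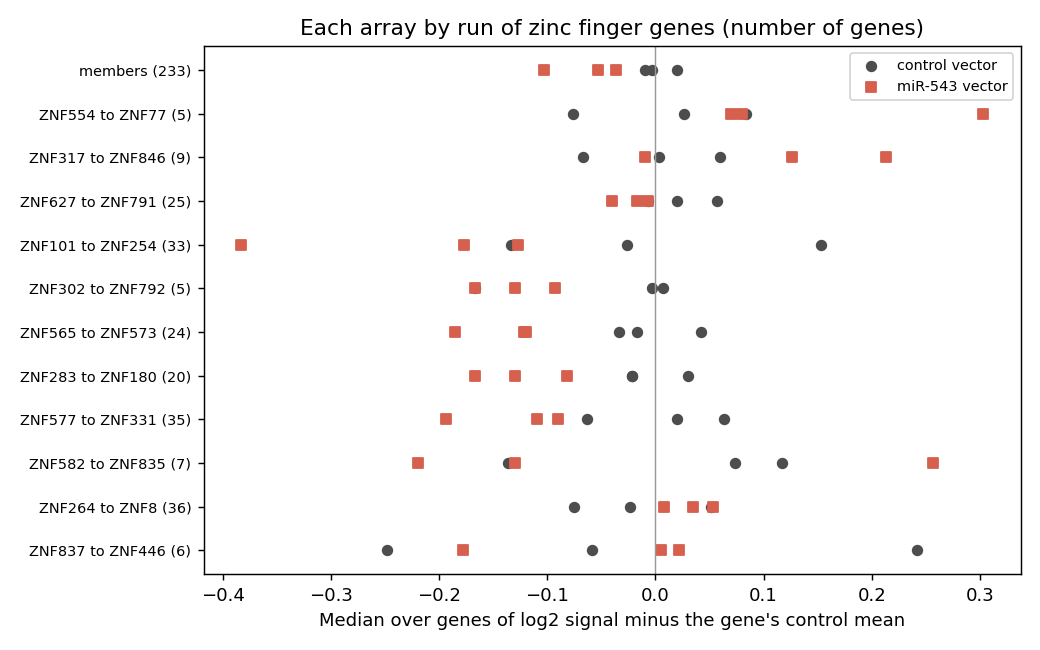
For all members and for each run of 5 or more (number of genes in brackets), the median over genes of log2 signal minus the gene's control mean, 1 point per array. In the run from ZNF101 to ZNF254 control arrays span -0.13 to 0.15 and miR-543 arrays -0.38 to -0.13.

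ZNF486, a KRAB zinc finger gene, read 7.20, 6.78 and 7.04 on the control arrays and 6.22, 6.15 and 5.38 on the miR-543 arrays. The groups did not overlap, with miR-543 array 3 the lowest. Its log2 change was -1.09 (SE 0.22, 95% interval -1.59 to -0.59), with an adjusted p of 0.0799 in limma. It passed with the filter on low signals (adjusted p = 0.0413) and with the trend and robust settings (0.0281), and the other alternatives gave up to 0.317.

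Its neighbours ZNF93 and ZNF90 lay lower as well. ZNF93, which silences certain LINE retrotransposons, read 9.65, 9.24 and 9.20 with the control vector and 8.99, 8.73 and 8.39 with the miR-543 vector. Its log2 change was -0.66 (SE 0.19, adjusted p = 0.246 in limma). For ZNF90 the values were 7.46, 7.12 and 7.20 against 6.97, 6.61 and 6.40, a change of -0.60 (adjusted p = 0.26 in limma). Neither pair of groups overlapped, and neither gene was called. ZNF682, which lies between them, had a change of -0.14 with overlapping groups.

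A second group, bounded here by their changes, was the 4 adjacent members ZNF43, ZNF208, ZNF257 and ZNF676. They lie in a longer stretch, from ZNF493 to ZNF99, with no other protein-coding gene between its members. Changes in that longer stretch ran from -1.36 (ZNF676) to 0.20 (ZNF729). ZNF43 read 10.88, 10.29 and 10.65 on the control arrays and 9.82, 10.14 and 9.66 on the miR-543 arrays, a change of -0.73 (SE 0.19, adjusted p = 0.185 in limma). ZNF208 read 11.35, 11.47 and 11.30 against 10.99, 10.77 and 10.70, a change of -0.55 (SE 0.14, adjusted p = 0.185 in limma). Both were without overlap, and both passed with the trend and robust settings only (adjusted p = 0.0414 for each). ZNF257 had a change of -0.57 with overlapping groups (adjusted p = 0.329 in limma). On either side of these 4, ZNF100 had a change of -0.20 and ZNF729 one of 0.20, both with overlapping groups.

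Toward the end of the run, ZNF91 showed another pattern. ZNF91, which silences SVA elements, read 9.48, 8.81 and 9.20 with the control vector and 9.00, 9.08 and 9.53 with the miR-543 vector. The groups overlapped, with control array 2 the lowest and miR-543 array 3 the highest, and the log2 change was 0.04 with a 95% interval of -0.41 to 0.49. ZNF675, an inhibitor of TRAF6 signalling, and its run mates ZNF681 and ZNF254 lay lower without overlap by small amounts, with log2 changes of -0.18, -0.27 and -0.22 and adjusted p between 0.564 and 0.709 in limma.

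Promoters of this run are shown because many of its genes resemble each other there while their changes differ. The RefSeq promoter table (GRCh38.p14) holds 250 bases before to 50 after the start site and matched 203 of the 233 members, 26 of the 33 in this run; ZNF676 was not among them. The windows below, 5′ to 3′ on the gene strand, are those of ZNF486 (chr19:20166964-20167263, plus strand), ZNF93 (chr19:19900696-19900995, plus strand), ZNF208 (chr19:22010894-22011193, minus strand) and ZNF91 (chr19:23395422-23395721, minus strand). Capitals mark CCAAT, the core of the motif that the factor NF-Y binds.
ZNF486: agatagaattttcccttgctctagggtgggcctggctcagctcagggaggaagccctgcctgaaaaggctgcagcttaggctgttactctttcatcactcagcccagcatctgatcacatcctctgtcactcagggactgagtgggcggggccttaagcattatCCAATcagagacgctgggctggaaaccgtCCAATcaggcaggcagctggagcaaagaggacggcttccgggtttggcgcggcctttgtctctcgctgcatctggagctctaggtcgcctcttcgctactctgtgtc
ZNF93: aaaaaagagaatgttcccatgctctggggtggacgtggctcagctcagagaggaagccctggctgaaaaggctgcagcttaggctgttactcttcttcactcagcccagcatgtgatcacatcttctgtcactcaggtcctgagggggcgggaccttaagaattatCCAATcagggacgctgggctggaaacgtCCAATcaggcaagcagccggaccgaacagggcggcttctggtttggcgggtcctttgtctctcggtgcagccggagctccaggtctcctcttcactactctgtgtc
ZNF208: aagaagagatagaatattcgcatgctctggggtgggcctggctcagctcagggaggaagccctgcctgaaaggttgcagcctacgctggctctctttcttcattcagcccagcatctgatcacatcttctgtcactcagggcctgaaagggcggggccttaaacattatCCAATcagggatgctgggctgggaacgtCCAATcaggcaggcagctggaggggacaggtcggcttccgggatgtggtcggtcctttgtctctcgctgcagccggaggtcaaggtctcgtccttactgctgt
ZNF91: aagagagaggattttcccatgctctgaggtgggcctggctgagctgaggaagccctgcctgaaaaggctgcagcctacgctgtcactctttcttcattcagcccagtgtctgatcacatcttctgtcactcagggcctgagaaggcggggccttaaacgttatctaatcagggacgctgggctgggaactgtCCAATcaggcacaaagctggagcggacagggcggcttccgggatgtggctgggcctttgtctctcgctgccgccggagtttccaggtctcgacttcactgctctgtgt
ZNF208 and ZNF91 have identical bases at 88.0% of the window, although their log2 changes were -0.55 and 0.04. ZNF486 and ZNF93 also share 88.0%, and ZNF486 and ZNF208 share 85.7%.

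Within the run the 325 promoter pairs had a median identity of 79.0%, beside 59.0% for 18579 pairs of members from different runs and 62.7% within the run from ZNF627 to ZNF791. Identities within the run from ZNF101 to ZNF254 went from 57.7% to 91.0%, and 229 of the 325 pairs reached 70%. Not all of its promoters are thus alike. CCAAT, searched on both strands, was found in all 26 promoters of the run and at 2 or more places in 18 of them, beside 34.6% and 10.8% of the 35116 promoters of the table. The longer word CCAATCAG, which contains it, was found in all 26, in 28 of 177 promoters of the other members and in 3.97% of all promoters. Of those 28, 21 lay in the run from ZNF627 to ZNF791 (median change -0.07), among its 23 promoters. The word was in 0 of 23 promoters from ZNF565 to ZNF573 (median change -0.18) and 1 of 16 from ZNF283 to ZNF180 (-0.14). From ZNF577 to ZNF331 (-0.12) it was in 1 of 27, and from ZNF264 to ZNF8 (0.06) in 0 of 33. In 23 of the 26 promoters from ZNF101 to ZNF254 a CCAAT began between 60 and 50 bases before the start site, and in 15 between 90 and 80 bases before it. At 2 or more places it was found in 7 of the 8 matched genes that were lower without overlap and in 11 of the other 18. The CCAAT letters were chosen after the changes were seen, and many of these promoters are alike. This split is therefore no independent comparison. The word TGATCACAT, a palindrome TGATCA with 3 more letters, was picked after reading the promoters of genes with negative changes. That choice favours such genes, and promoters of the run resemble each other, so the counts within the run are no independent comparison. The word was found in all 8 matched genes lower without overlap and in 7 of the other 18. It was found in 0 of 177 promoters outside the run and in 0.242% of all promoters. Another word searched, GGCTTCCGG, was in 6 of the 8 and in 12 of the other 18, so it hardly separated them. Outside the run it was in 4 of 177 promoters, and it was in 1.21% of all promoters. These matches are descriptions of letters and were not tested against the changes. The promoters of the run were low in CG dinucleotides, with a median of 10 per window, beside 21 in the other members and 14 in all promoters.

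**Figure D5:**
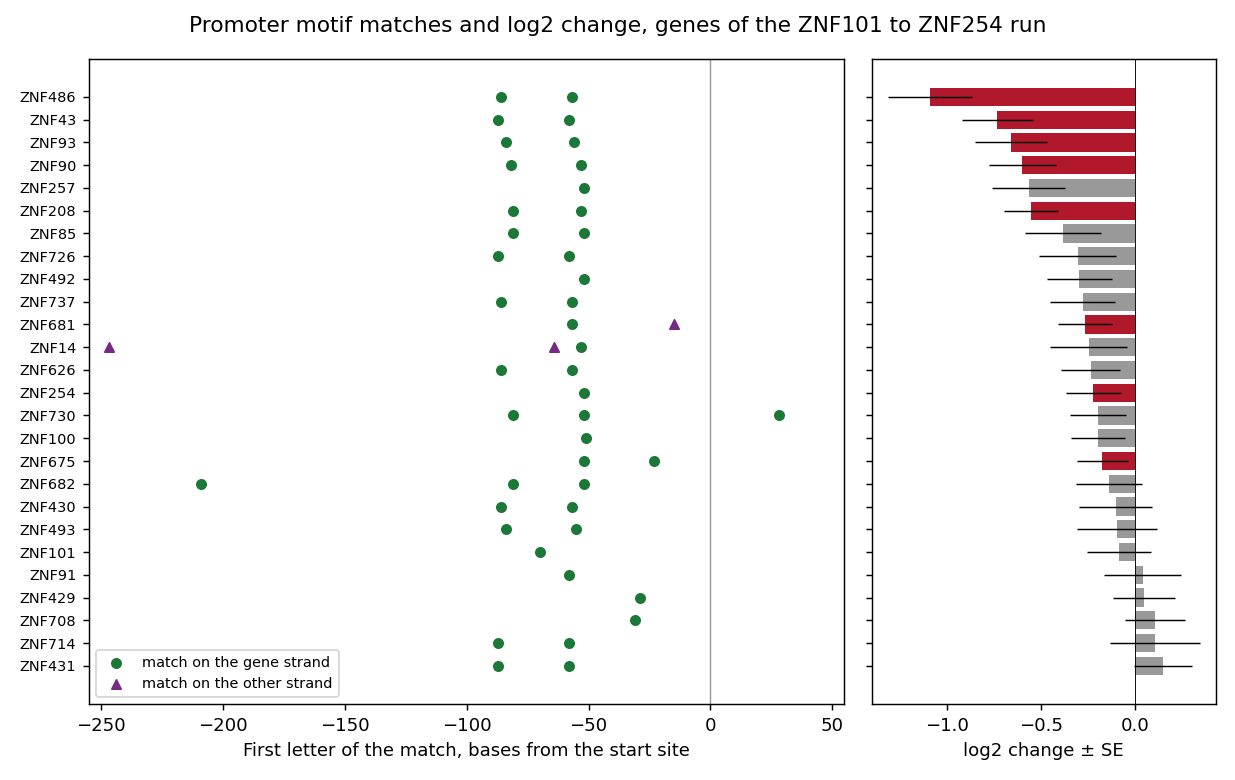
Left, places where the CCAAT motif begins in 26 matched promoters of the run from ZNF101 to ZNF254, in bases from the start site; right, log2 change ± SE of the same genes, with red bars for groups without overlap. Matches in 23 genes begin 60 to 50 bases before the start, and they occur at both ends of the order of changes.

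On the long arm, 3 further large runs had negative medians. The run from ZNF565 to ZNF573 held 24 members, 18 below 0, with a median of -0.18, and the run from ZNF283 to ZNF180 held 20, 16 below 0, with a median of -0.14. In the run from ZNF577 to ZNF331, 24 of 35 members lay below 0 (median -0.12), and 11 were lower without overlap and 0 higher, beside 7.5% and 7.89% of all probe sets. In each of these 3 runs the array medians after subtracting control means did not overlap between the groups. None of their members was called. In these 3 runs the array medians were -0.06 to 0.06 on the control arrays and -0.19 to -0.08 on the miR-543 arrays.

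ZNF567 had the most negative change of these 3 runs. It read 9.45, 9.19 and 8.83 on the control arrays and 8.66, 8.14 and 8.40 on the miR-543 arrays, so that the lowest control and the highest miR-543 array were 8.83 and 8.66. Its log2 change was -0.76 (SE 0.19, 95% interval -1.19 to -0.32, adjusted p = 0.185 in limma). Its neighbour ZNF461 had a change of -0.52, also without overlap (adjusted p = 0.292 in limma). In the run from ZNF283 to ZNF180, ZNF284 had a change of -0.43 without overlap (adjusted p = 0.422 in limma).

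The run from ZNF577 to ZNF331 had changes from -0.60 to 0.23, with 11 of 35 members above 0. ZNF845 read 11.28, 11.64 and 11.31 with the control vector and 11.00, 10.72 and 10.89 with the miR-543 vector, a change of -0.54 (SE 0.16, adjusted p = 0.246 in limma). ZNF614 had a change of -0.60, from 7.08, 7.00 and 6.48 to 6.19, 6.25 and 6.33 (adjusted p = 0.259 in limma). The last 3 members lower without overlap, ZNF845, ZNF765 and ZNF813, are listed next to each other in the run, with changes of -0.54, -0.43 and -0.41. ZNF611, one of the highest signals, had a change of -0.04 with a 95% interval of -0.33 to 0.25.

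Other runs had medians above 0. The run from ZNF264 to ZNF8, on the long arm, had 24 of 36 members above 0 and a median of 0.06. It nonetheless held ZNF419, with 6.26, 6.27 and 6.33 against 5.76, 5.20 and 5.88, a change of -0.67 (SE 0.18, adjusted p = 0.218 in limma), and ZNF548, with a change of -0.55 (SE 0.15, adjusted p = 0.198 in limma). Both were lower without overlap. On the short arm, the 9 members from ZNF317 to ZNF846 had a median of 0.09, with ZNF561 at -0.33 and ZNF426 at 0.19, both without overlap. ZNF555 and ZNF77, in the run of 5 nearest the tip of the short arm, had changes of 0.23 and 0.35, higher without overlap. ZNF555 read 9.80, 9.81 and 9.79 with the control vector and 10.34, 9.89 and 9.87 with the miR-543 vector. Without miR-543 replicate 1 its change was 0.08.

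The run from ZNF627 to ZNF791 on the short arm was mixed, with 13 members below 0, 11 above and 1 at 0 (median -0.07). ZNF844 read 7.21, 7.05 and 7.39 with the control vector and 6.71, 5.94 and 6.52 with the miR-543 vector, a change of -0.83 (SE 0.20, 95% interval -1.28 to -0.38, adjusted p = 0.159 in limma). The adjacent ZNF20 had a change of -0.52 with overlapping groups, with 5.62 on miR-543 array 3 against 6.50 and 6.90 on arrays 1 and 2. ZNF709 went the other way, from 3.79, 3.79 and 3.82 to 4.41, 5.05 and 4.02, a change of 0.69 (SE 0.23, adjusted p = 0.309 in limma). Its control signal lay below the lower quartile of the arrays, so the size is uncertain, and its miR-543 arrays spanned a wide range. Of the remaining runs of 5 or more, ZNF302 to ZNF792 had a median of -0.08, with ZNF302 itself at -0.48, and ZNF837 to ZNF446, the last run on the long arm, one of -0.14, with 4 of 6 members below 0 and ZNF837 at -0.25. The 7 members from ZNF582 to ZNF835 had a median of 0.06.

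Among the 8 positive changes without overlap, those of ZNF709, ZNF565 and ZNF471 had an unadjusted p under 0.05. ZNF565 read 4.74, 5.23 and 4.71 with the control vector and 5.33, 5.37 and 5.54 with the miR-543 vector, a change of 0.52 (SE 0.17, adjusted p = 0.309 in limma). For ZNF471, whose promoter is often methylated in tumours, the values were 3.54, 3.62 and 3.48 against 3.84, 4.17 and 3.92, a change of 0.43 (SE 0.14, adjusted p = 0.325 in limma). ZNF579, the other member higher at that threshold, had overlapping groups, with 7.87, 7.47 and 8.26 against 8.27, 8.79 and 8.13 (log2 change 0.53, SE 0.23, adjusted p = 0.456 in limma). Control means of ZNF565 and ZNF471 were 4.89 and 3.55, below the array medians.

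By known role, the members that bind transposable elements came first. Of 8 such genes, 5 lay below 0, with a median of -0.12, beside a median of 0.01 and 47.1% below 0 over all probe sets, and none was called. ZNF93 and ZNF765 were lower without overlap, with changes of -0.66 and -0.43. ZNF417 and ZNF587, neighbouring and closely similar genes that act on endogenous retroviruses, were higher without overlap, with changes of 0.35 and 0.20 (adjusted p = 0.479 and 0.673 in limma). ZNF649 (-0.26), ZNF534 (-0.16), ZNF808 (-0.09), which acts on MER elements during pancreas development, and ZNF91 (0.04) had overlapping groups.

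Members known for promoter methylation in cancer were measured for 11 of 14 listed. Of these, 4 lay below 0 and 7 above, with a median of 0.01, and none was called. Over all probe sets 47.1% lay below 0 and 0.569% were called. Their median control level was 4.15, below the array medians of 5.99 to 6.01. Besides ZNF471, ZNF382 had a change of 0.21, and ZNF331, which is imprinted, one of 0.23, both with overlapping groups.

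A further 10 members have a described role of their own, and 7 of the 10 lay below 0, with a median of -0.10. Below 0 lay 57.1% of all members and 47.1% of all probe sets, and 7.5% of all probe sets were lower without overlap. ZNF675 and ZNF146, the latter built almost entirely of fingers, were lower without overlap with changes of -0.18 and -0.17, and none was called. ZNF175, described as a repressor of HIV transcription, had a change of 0.21. ZNF274, which brings SETDB1 to zinc finger genes themselves, read from 5.94 ± 0.19 to 6.02 ± 0.24 (SD, n = 3), a change of 0.08 with a 95% interval of -0.30 to 0.45.

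The co-repressor genes through which KRAB proteins act were also followed. Of 31 symbols listed, of which FAM208A is an older name of TASOR, 28 were measured, 13 below 0 and 15 above, with a median of 0.01. Over all probe sets 47.1% lay below 0. None of the 28 was called by limma, beside 0.569% of all probe sets. At an unadjusted p under 0.05 there were 1 lower and 1 higher of the 28, beside 5.21% and 5.4% of all probe sets. TRIM28, the shared co-repressor, read 12.15, 12.03 and 12.46 with the control vector and 12.11, 12.22 and 12.32 with the miR-543 vector, and the arrays of the groups were intermixed. Its log2 change was 0.00 (0.0033, 95% interval -0.34 to 0.35).

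SETDB1, which methylates histones at the silenced sites, read 10.78, 10.74 and 10.84 on the control arrays and 11.07, 11.07 and 11.09 on the miR-543 arrays. The groups did not overlap, and the change was 0.29 (SE 0.13, 95% interval 0.0026 to 0.58, adjusted p = 0.468 in limma). Of the 28 genes, 2 were lower and 5 higher without overlap, beside 7.5% and 7.89% of all probe sets. The other higher ones were MORC2 (0.27), POGZ (0.17), SUV39H2 (0.17) and TRIM33 (0.07). TRIM24, a relative of TRIM28, had a change of -0.34 without overlap (adjusted p = 0.444 in limma), and the remodeller CHD3 one of -0.37 without overlap (adjusted p = 0.488 in limma). The histone chaperone DAXX (-0.35) and the histone methyltransferase EHMT2 (0.39) had overlapping groups. The maintenance methyltransferase DNMT1 and its partner UHRF1, also on that list, had changes of -0.25 and 0.02.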

How the data were processed

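Expression of K562 cells was measured on 6 single-colour arrays, 3 per vector, and sample titles gave the groups. The authors deposited log2 signals per probe set. The submitters' processing notes list RMA and Transcriptome Analysis Console 4.0, with no order. That the scale is log2 was taken from the range of the values. The RMA variant, build and annotation release are not given in the sources used here. The members and gene lists were chosen with earlier results of these data known.

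All 21448 probe sets were fitted with limma 3.58.1 in R 4.3.3 (lmFit and eBayes, no trend, block or filter). A change is the miR-543 mean minus the control mean, limma p-values are two-sided and adjusted over all probe sets by the Benjamini-Hochberg method, and the call threshold was 0.05. The steps were tested on simulated data with changes added to some probe sets. Of added log2 changes of 0.5, 1, 1.5 and 2, the share called was 0%, 66%, 96% and 100%. A change near 0.5 would thus mostly go uncalled, so the lack of a call does not show that it is absent. With 3 arrays against 3 an exact permutation test cannot go below 0.1, so none is given. All 233 gene identifiers matched RefSeq (GRCh38.p14), which was used for gene order and promoters. Promoter pairs were aligned globally, and identity is identical bases as a share of the 300-base window.

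Members named were called members, the 10 most negative and 10 most positive changes without overlap (8 positive ones existed), the 6 highest and 4 lowest control means, the transposable element list, up to 3 of each other list the member with the smallest p in each run of 5 or more, and of the co-repressors TRIM28, SETDB1 and 4 others. ZNF20, ZNF257, ZNF274, ZNF461, ZNF506, ZNF579, ZNF681, ZNF682, ZNF729, ZNF813, DNMT1, MORC2, POGZ, SUV39H2, TRIM33 and UHRF1, and the motif letters, were chosen after their values were seen. Grouping by KRAB box or finger number and paralog pairs by protein identity were planned and not analysed here. Alternatives were a further quantile normalization, equal medians, a filter above the 50th percentile of mean signal, trend and robust settings, a replicate block and leaving out each array.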

Additional observations from a re-analysis of the deposited data

How the results depend on the processing

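The call of ZNF676 and the negative medians of the members and of the run from ZNF101 to ZNF254 held under every alternative run, where those of the run, and of TRIM28 and SETDB1, were added after seeing the data. With the trend and robust settings 252 of all probe sets and 4 members were called, ZNF676, ZNF486, ZNF43 and ZNF208, all of the run from ZNF101 to ZNF254. With the filter above the 50th percentile, which kept 148 members, 2 were called, ZNF676 and ZNF486, beside 168 of all probe sets kept. Of the 148, 85 lay below 0, beside 49.0% of all probe sets kept. With 1 array left out, 34 to 59 of all probe sets and 1 member in each case were called, and 137 to 144 members lay below 0. The members' median was then -0.08 to -0.05. In the run 24 to 29 members lay below 0 with a median of -0.26 to -0.12 (-0.255 to -0.1233). Groups did not overlap in 63 to 74 members (fewer arrays overlap less), and the same count over all probe sets was not made. Of the 42 named members 39 kept their sign in all alternatives, and ZNF121, ZNF549 and ZNF91, all close to 0, did not, nor did TRIM28. The co-repressor count was 0 throughout.

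With the replicate number as a block, 71 probe sets and 1 member were called, ZNF676 with an adjusted p of 0.0272 in limma. Same-numbered arrays had correlations of deviations from the group means of 0.0948, -0.0527 and 0.0181, and not every array correlated best with its own number, so the numbers were not taken as pairs. Averaging several rows per symbol was not run, since each symbol had 1 row. With at most 1 intervening gene there were 41 runs, and the run from ZNF101 to ZNF254 was the same. Signal over background was not tested, and sizes for members below the array medians are uncertain.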

Other observations

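A further 11 zinc finger genes of chromosome 19 with other symbols (ZFP, ZIK, ZIM and ZSCAN), which the symbol rule leaves out, had 8 changes below 0 and a median of -0.10, and none was called. Over all probe sets 47.1% lay below 0 and 0.569% were called. Of the 11, 2 were lower and 1 higher without overlap, beside 7.5% and 7.89% of all probe sets. The median control level of the 11 was 4.59, below the array medians. ZFP82 went from 6.33 ± 0.37 to 5.54 ± 0.15 (SD, n = 3), a log2 change of -0.79 (SE 0.19, adjusted p = 0.155 in limma) without overlap. ZIM3, a strong KRAB repressor, had a change of 0.36 without overlap (adjusted p = 0.383 in limma) at a control mean of 3.17, below the lower quartile of the arrays.

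Across the 233 members, which are not independent replicates and share the same 6 arrays, the log2 change had a Pearson's r of -0.02 (-0.015) with the mean level and a Spearman's rho of -0.005. With the number of CG dinucleotides in 203 promoters r was 0.15 and rho 0.12. Over 204 pairs of neighbours in the same run, which can share sequence and probes, the changes of the pair had an r of 0.20 and a rho of 0.17. These are descriptions with no test.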
